A study of Mus musculus with 6 samples.

Results

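Beside the HoxA genes, blood stem cells depend on a small set of other regulators of self-renewal, and 9 of them are described here: Meis1, Pbx3, Mecom, Prdm16, Myb, Mycn, Hlf, Erg and Msi2. They were chosen by name, as genes known for stem cell self-renewal, but with earlier results of these data known. All 9 were found once each among the 55487 genes of the table. Total RNA was sequenced in 6 libraries from mouse marrow cells labelled cKIT+. A lentivirus had given 3 of them wild type MLLT3 (the WT group) and the other 3 the double mutant MLLT3 K63E K67E (the DM group). In both groups 4-hydroxytamoxifen at 200 nM was added to delete the endogenous Mllt3 gene, so the WT cells were also targeted for deletion and both groups overexpressed MLLT3 from the vector. After sorting, the cells spent 8 days in methylcellulose with mFlt3L at 10 ng/mL and, at 20 ng/mL each, the interleukins mIL-3, mIL-6 and mIL-11 besides mSCF, mGMCSF, hEPO and hTPO. The strain, the age of the mice and the driver of the tamoxifen-dependent deletion are not given in the sources used here, and neither is whether the libraries of a group came from separate mice or cultures. The p-values then measure only the spread between these libraries, which may be technical.

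MLLT3, also called AF9, is a subunit of elongation complexes, and its YEATS domain binds acylated histones. Fusions of the MLL protein, among them MLL-AF9, keep several of these regulators active in leukaemia, Meis1, Pbx3, Mecom and Myb among them. MEIS1 and PBX3 are homeodomain proteins of the TALE class that bind DNA together with HOX proteins. The EVI1 protein from the Mecom locus and PRDM16 are related zinc finger proteins that maintain stem cells. MYB is needed by proliferating progenitors, MYCN acts with MYC in stem cell survival and growth, and HLF and ERG are transcription factors that mark and maintain stem cells. MSI2 is different in kind, since it binds RNA and controls the translation of its targets.

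The value of Mecom does not separate the products of its starts, and Myb is the regulator with the largest difference. Promoter sequences of 4 start sites are shown: the 2 of Mecom with a RefSeq entry, the related one of Prdm16 and that of Myb. They come from RefSeq (GRCm38.p6), run 5′ to 3′ on the minus strand from 250 bases before the start to 50 after it, and 8 of the 9 genes had an entry. Mecom has a distal start, used by the longer MDS1-EVI1 product with a PR domain, and a proximal start 496555 bases away, used by EVI1. The first 2 sequences are the distal Mecom promoter (chr3:30509710-30510009) and the Prdm16 promoter (chr4:154636824-154637123), in which capitals mark the longest run of bases they share.
Mecom distal: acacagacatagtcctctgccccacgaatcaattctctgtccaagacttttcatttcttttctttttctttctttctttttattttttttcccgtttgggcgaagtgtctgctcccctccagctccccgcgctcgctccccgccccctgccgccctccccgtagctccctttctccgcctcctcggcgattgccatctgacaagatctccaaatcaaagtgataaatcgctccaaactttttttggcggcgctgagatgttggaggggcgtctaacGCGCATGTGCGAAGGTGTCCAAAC
Prdm16: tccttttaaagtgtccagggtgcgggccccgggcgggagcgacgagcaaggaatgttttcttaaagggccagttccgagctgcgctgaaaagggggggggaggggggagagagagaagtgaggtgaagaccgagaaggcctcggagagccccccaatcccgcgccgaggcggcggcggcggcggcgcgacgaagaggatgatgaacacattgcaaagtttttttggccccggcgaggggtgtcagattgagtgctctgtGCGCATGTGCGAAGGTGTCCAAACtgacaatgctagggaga

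The shared run was 24 bases long, began at base 277 of the Mecom window and at base 260 of the Prdm16 window, and was found in no other gene among 32851 promoter sequences. In both windows it lay after the start, in transcribed sequence. It reached the last base of the Mecom window, so the full length of the shared stretch is not known. The proximal Mecom promoter (chr3:30013155-30013454) shared no run longer than 7 bases with Prdm16. The values below are totals per gene, so that transcripts from the distal and the proximal start of Mecom are not separated. The Myb promoter (chr10:21160935-21161234) is shown last, and its capitals mark the letters GGCGGGA, the core recognised by E2F factors, searched on both strands after the sequence had been read. The same letters, not marked above or below, occur once each in the Prdm16 and the proximal Mecom sequence, and they were found in 11.3% of all promoter sequences.
Mecom proximal: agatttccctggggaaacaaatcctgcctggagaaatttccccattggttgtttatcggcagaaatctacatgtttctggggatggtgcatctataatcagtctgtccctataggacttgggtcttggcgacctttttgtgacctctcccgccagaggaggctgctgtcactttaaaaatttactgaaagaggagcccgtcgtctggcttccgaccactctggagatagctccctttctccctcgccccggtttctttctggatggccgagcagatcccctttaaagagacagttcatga
Myb: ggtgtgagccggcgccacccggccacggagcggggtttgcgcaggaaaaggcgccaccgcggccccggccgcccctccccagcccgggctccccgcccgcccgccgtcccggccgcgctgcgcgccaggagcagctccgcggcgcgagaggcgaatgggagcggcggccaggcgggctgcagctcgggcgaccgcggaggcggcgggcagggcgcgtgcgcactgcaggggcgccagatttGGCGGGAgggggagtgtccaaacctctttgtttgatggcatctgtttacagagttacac

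The measure throughout is the authors' rlog value, a log2 value corrected for library size in which weakly counted genes are drawn toward their mean, so that their differences are understated. Depth is unknown. Mllt3 itself lay between 12.44 and 12.87 in WT and between 11.99 and 12.44 in DM. The difference was -0.48 (SE 0.137, limma adjusted p 0.0448). The value of Mllt3 does not separate the vector from the endogenous gene. Of the markers of the labelled cells, Kit lay between 14.29 and 14.9 and Cd34 between 12.02 and 12.64, while Flt3 lay between 4.23 and 4.68. The mean of 9 mast cell and basophil markers was as high as that of Kit, at 14.58 to 14.81 in WT and 14.46 to 14.97 in DM.

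The question put to these genes is whether they differ between cells given the mutated and the wild type MLLT3. Since Mllt3 was also lower in DM, effects of the mutation and of the Mllt3 level cannot be told apart. Among the 9 regulators Mecom rose and Myb fell in DM, and the other 7 did not pass the test, which was limma on 18766 genes with a Benjamini-Hochberg adjusted p under 0.05. Over all tested genes, 13.9% passed it, 9.2% higher and 4.71% lower in DM. DM and WT libraries were fully apart for 5 of the 9 regulators, 2 higher and 3 lower in DM. Of all tested genes 35.8% were apart in this way, which is the sum of 21.5% that were higher and 14.3% that were lower in DM. The 9 regulators had a median difference of -0.04 and a median absolute difference of 0.24 on the log2 scale, against 0.01 and 0.1 over all tested genes. No regulator differed by 1 or more on the log2 scale. Since the 9 were chosen with earlier results of these data known, their counts and medians beside those of all genes are a description only.

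**Figure D1:**
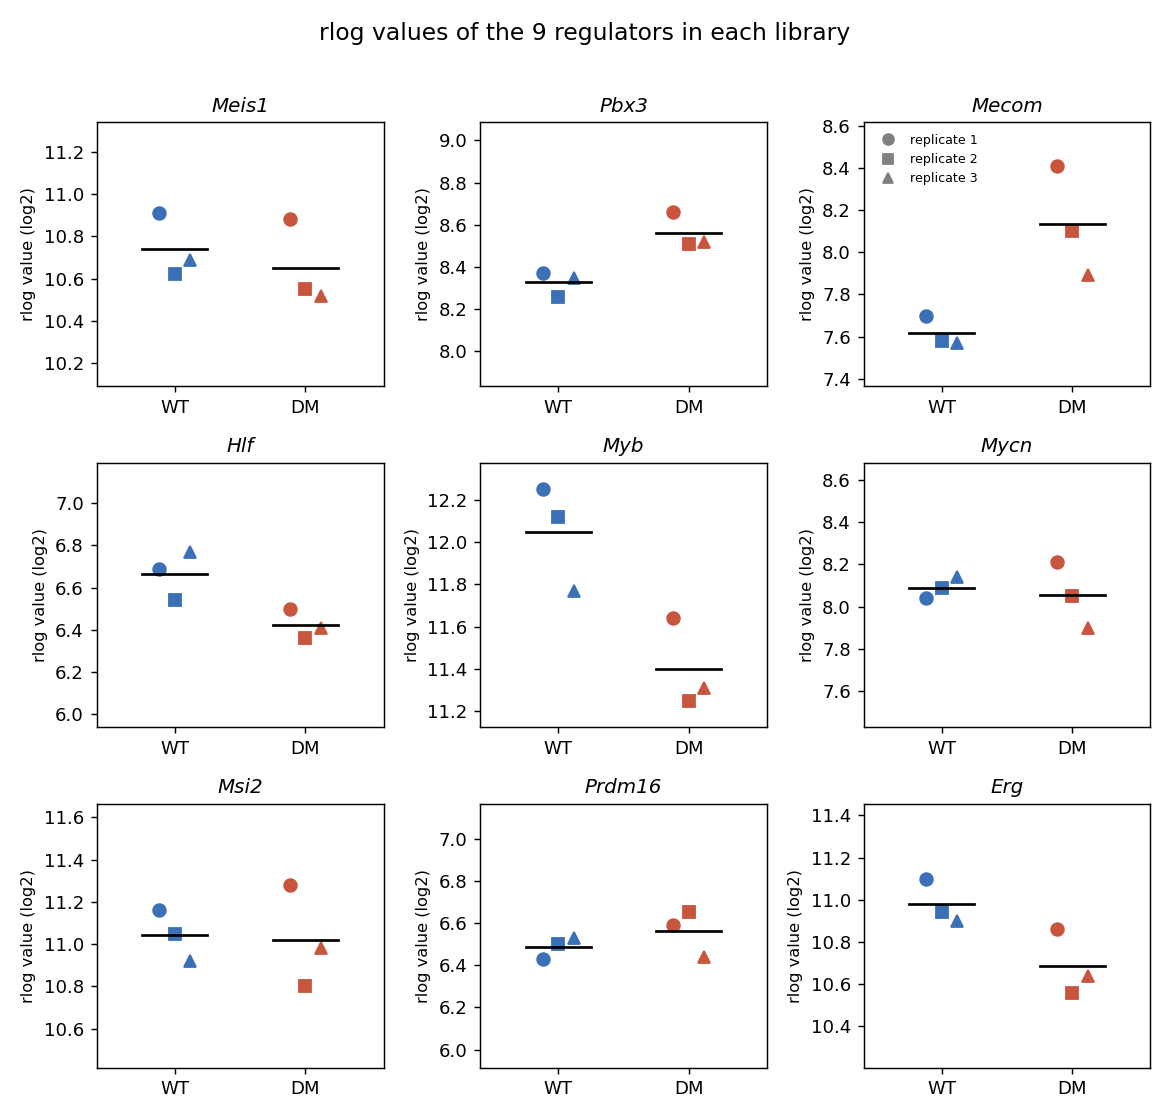
rlog values (log2) of the 9 regulators in each library, with 1 panel per gene. Symbols are replicates, bars are group means, and all panels span the same height. The DM libraries lie above all WT libraries for Mecom and Pbx3 and below them for Myb, Erg and Hlf.

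Levels were compared between genes after subtracting the log2 of the merged exon length in kilobases. On this scale Erg was highest at 9.04, followed by Myb at 8.56, Msi2 at 7.65, Meis1 at 7.3, Mycn at 6.35, Pbx3 at 5.84, Mecom at 4.24, Hlf at 3.8 and Prdm16 at 3.3, as means over the 6 libraries. The ranges over the 6 libraries overlapped for 3 pairs of neighbours in this order, Erg with Myb, Msi2 with Meis1 and Mecom with Hlf. The ranges of the other neighbours did not overlap. Mecom, Hlf and Prdm16 were thus the lowest of the 9 per length. Merged length counts the exons of all annotated transcripts, and which of these the cells make is not known. The order is therefore approximate.

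Meis1 (ENSMUSG00000020160.18; chromosome 11, 18879817 to 19018985, minus strand), the HOX cofactor, had rlog values of 10.91, 10.62 and 10.69 in the WT libraries against 10.88, 10.55 and 10.52 in the DM libraries, each in the order of replicates 1 to 3, as for all genes here. The groups overlapped, and replicate 1 was the highest library in each. Group means were 10.74 ± 0.151 for WT and 10.65 ± 0.196 for DM (SD, n = 3). The difference of -0.09 (SE 0.109, limma adjusted p 0.626) had a 95% interval from -0.33 to 0.16. Its spread within groups was larger than that of 91.1% of the 2294 genes within 0.5 of its level.

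Pbx3 (ENSMUSG00000038718.15; chromosome 2, 34171457 to 34373142, minus strand), a partner of MEIS1 and HOX proteins, read 8.37, 8.26 and 8.35 in the WT libraries against 8.66, 8.51 and 8.52 in the DM libraries. All DM libraries lay above all WT libraries. WT averaged 8.33 ± 0.0599 (SD, n = 3) and DM 8.57 ± 0.0862, a difference of 0.24 (SE 0.0729, 95% interval 0.07 to 0.4) that did not pass the test (limma adjusted p 0.0591). With only genes of a mean of at least 5 tested, the adjusted p was 0.0457. The cofactor and its partner were not compared with each other by a test.

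Mecom (ENSMUSG00000027684.16; chromosome 3, 29951296 to 30548008, minus strand) read 7.7, 7.58 and 7.57 in the WT libraries against 8.41, 8.1 and 7.89 in the DM libraries. The WT libraries lay within 0.12 of each other, and all 3 DM libraries were higher but spread out, with DM replicate 1 the highest. The mean rose from 7.62 ± 0.0691 (SD, n = 3) to 8.13 ± 0.262, by 0.52 in log2 units (limma SE 0.118, adjusted p 0.0189), or 1.43-fold. Leaving out DM replicate 1 gave a difference of 0.38. When DM replicate 2 was left out it was 0.53, and in that fit the call was lost (adjusted p 0.0516). Over all 12 alternatives the adjusted p ran from 0.00497 to 0.0516. The antisense gene Mecomos shares 81 bases (0.65%) of the merged Mecom exons and lay between 2.87 and 3.12 in the 6 libraries.

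Prdm16 (ENSMUSG00000039410.16; chromosome 4, 154316125 to 154636873, minus strand) is the paralog of Mecom whose printed window holds the same 24-base run after its start. It read 6.43, 6.5 and 6.53 in the WT libraries against 6.59, 6.65 and 6.44 in the DM libraries. The lowest library was in WT and the next lowest in DM, so the groups overlapped. Group means were 6.49 ± 0.0526 for WT and 6.56 ± 0.108 for DM (SD, n = 3), a difference of 0.08 (SE 0.076, limma adjusted p 0.53, 95% interval -0.09 to 0.25). Whether Mecom and Prdm16 differed in their response was not tested.

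Myb (ENSMUSG00000019982.15; chromosome 10, 21124935 to 21160984, minus strand), the transcription factor of cycling progenitors, read 12.25, 12.12 and 11.77 in the WT libraries against 11.64, 11.25 and 11.31 in the DM libraries. The lowest WT library, replicate 3, was 0.14 above the highest DM library, replicate 1. The mean fell from 12.05 ± 0.247 (SD, n = 3) to 11.4 ± 0.206. This change of -0.65 in log2 units (limma SE 0.133, adjusted p 0.0127) puts WT 1.56-fold above DM. In size this change exceeded that of 97.8% of all tested genes, which were not matched to Myb in level. The difference was -0.78 without WT replicate 3, and the call was lost in 2 fits, at -0.57 when DM replicate 2 was left out (adjusted p 0.0529) and at -0.6 when DM replicate 3 was (0.0526), while the adjusted p over all 12 alternatives ran from 0.00124 to 0.0529. The antisense gene Gm26577 shares 559 bases (6.26%) of the merged Myb exons, but lay between 3.57 and 3.67 in all 6 libraries.

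Mycn (ENSMUSG00000037169.15; chromosome 12, 12936093 to 12941914, minus strand), a MYC family member, read 8.04, 8.09 and 8.14 in the WT libraries against 8.21, 8.05 and 7.9 in the DM libraries. The DM libraries lay on both sides of the WT libraries. WT averaged 8.09 ± 0.0521 (SD, n = 3) and DM 8.05 ± 0.157, a difference of -0.04 (SE 0.0871, limma adjusted p 0.808, 95% interval -0.23 to 0.16).

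Hlf (ENSMUSG00000003949.16; chromosome 11, 90336536 to 90390895, minus strand), a PAR bZIP factor whose expression marks stem cells, read 6.69, 6.54 and 6.77 in the WT libraries against 6.5, 6.36 and 6.41 in the DM libraries. All DM libraries lay below all WT libraries, the closest being WT replicate 2 and DM replicate 1. Group means were 6.67 ± 0.117 for WT and 6.42 ± 0.0675 for DM (SD, n = 3), a difference of -0.25 (SE 0.0793, 95% interval -0.42 to -0.07) that did not pass the test (limma adjusted p 0.0689). The adjusted p was 0.0337 without WT replicate 2 and 0.0463 with only genes of a mean of at least 5 tested.

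Erg (ENSMUSG00000040732.20; chromosome 16, 95359169 to 95586593, minus strand), an ETS factor of stem cells that is also made by endothelium and megakaryocytes, read 11.1, 10.94 and 10.9 in the WT libraries against 10.86, 10.56 and 10.64 in the DM libraries. The lowest WT and the highest DM library lay within 0.04 of each other without overlapping. WT averaged 10.98 ± 0.107 (SD, n = 3) and DM 10.69 ± 0.156, a difference of -0.29 (SE 0.0918, 95% interval -0.5 to -0.09) that did not pass the test (limma adjusted p 0.0622). It passed in 5 of 12 alternatives, among them quantile normalization (-0.39, adjusted p 0.0212), centring each library on its median (-0.33, 0.0384), a mean of at least 5 (-0.29, 0.0404) and leaving out DM replicate 1 (-0.38, 0.0276). The adjusted p was 0.204 without WT replicate 1 and 0.216 without DM replicate 2, and it ran from 0.00832 to 0.216 over all 12.

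Msi2 (ENSMUSG00000069769.13; chromosome 11, 88339382 to 88718513, minus strand), the RNA-binding regulator, read 11.16, 11.05 and 10.92 in the WT libraries against 11.28, 10.8 and 10.98 in the DM libraries. The highest and the lowest of the 6 libraries were both DM libraries. Group means were 11.04 ± 0.121 for WT and 11.02 ± 0.242 for DM (SD, n = 3), a difference of -0.02 (SE 0.116, limma adjusted p 0.933, 95% interval -0.28 to 0.24). Within groups Msi2 varied more than 93.8% of the genes of a like level. This share was 97.3% for Myb, 91.1% for Meis1 and Mecom, 81.3% for Erg and 67.3% for Mycn. It was lower for Hlf (46.8%), Prdm16 (36.6%) and Pbx3 (32.5%).

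**Figure D2:**
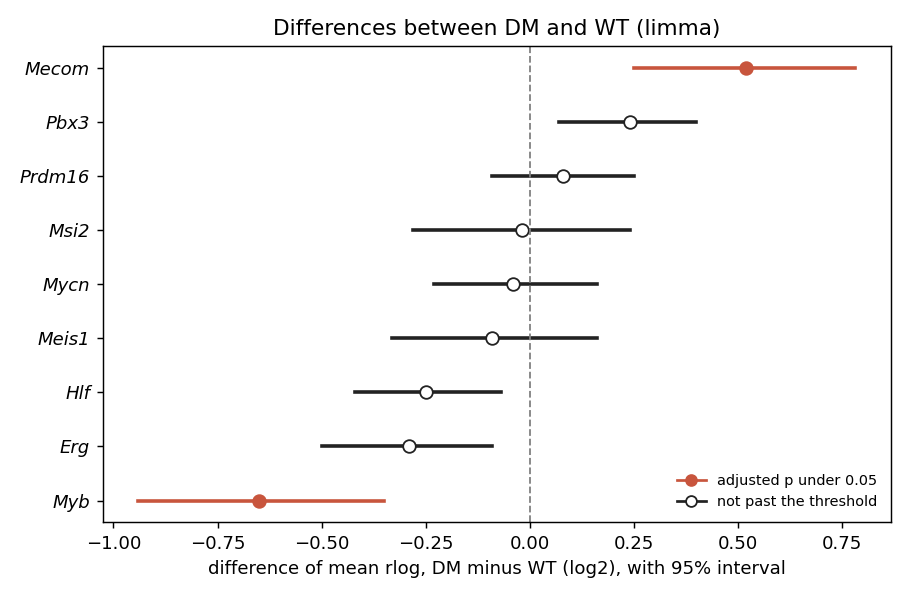
Difference of mean rlog between DM and WT (log2, horizontal axis) for each of the 9 regulators, with limma's 95% interval as a bar. Mecom (0.52) and Myb (-0.65) passed the test and are filled. The intervals of Pbx3, Hlf and Erg, which are not adjusted for the number of genes, also leave out 0.

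The intervals of Meis1, Mycn, Msi2 and Prdm16 included 0. The largest differences that these intervals allow were -0.33 for Meis1 and -0.28 for Msi2, in either case smaller in size than the measured difference of Myb. Leaving out DM replicate 2 left no regulator past the threshold in either direction, and leaving out DM replicate 3 left Mecom alone.

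**Figure D3:**
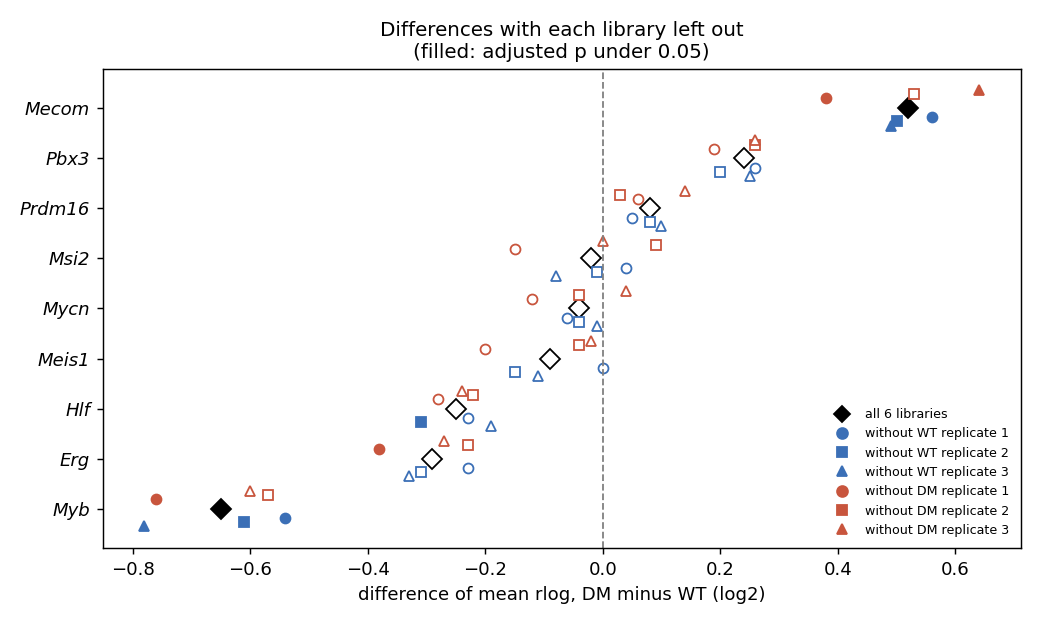
Difference of mean rlog between DM and WT (log2, horizontal axis) with all 6 libraries (diamonds) and with each library left out in turn (coloured symbols). Filled symbols passed the test in that fit. Mecom, Pbx3 and Prdm16 stayed above 0 and Hlf, Erg and Myb below 0 in all 6 of these fits.

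Within groups, DM replicate 1 was the highest of the 3 DM libraries for 8 of the 9 regulators, all but Prdm16, while it was the highest DM library for 31.8% of all tested genes. WT replicate 1 was the highest WT library for 6 of the 9, against 24.4% of all tested genes. The mean of the mast cell and basophil markers was also highest in these 2 libraries, at 14.97 in DM replicate 1 and 14.81 in WT replicate 1. So was the mean of 10 stem and progenitor markers, at 10.39 in DM replicate 1 (10.25 and 10.21 in the other DM libraries) and 10.24 in WT replicate 1 (10.13 and 10.15). In both groups Meis1 put the 3 libraries in the same order as the stem and progenitor markers. In both groups Myb, Msi2 and Erg put the 3 libraries in the same order as the mast cell and basophil markers did. All 9 regulators had been set against 10 marker lists, and no other match in both groups was found. With only 3 libraries per group such matches can arise by chance. Their share over all tested genes was not computed, so these orders are a description only. Kit read 14.58, 14.32 and 14.29 in the WT libraries against 14.9, 14.3 and 14.59 in the DM libraries. The part of mast cell or progenitor content in the spread of these regulators was not tested.

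Markers of several cell types also differed between the groups. Of the 10 stem and progenitor markers Procr was higher (0.73, limma adjusted p 0.00705) and Flt3, at a low level of 4.23 to 4.68, lower in DM. The mean levels of the 10 were 10.13 to 10.24 in WT and 10.21 to 10.39 in DM. The neutrophil list had 11 of 12 markers lower in DM, and its mean level was 13.98 to 14.17 in WT and 11.77 to 12.37 in DM. Of the 10 monocyte and macrophage markers 7 were higher and 2 lower, with mean levels of 12.32 to 12.68 in WT and 12.69 to 12.87 in DM, and of 6 eosinophil markers 3 were lower. None of the 9 mast cell and basophil markers passed the test. The means of the 8 tested megakaryocyte markers overlapped, at 10 to 10.58 in WT and 10.15 to 10.78 in DM, but Gp1ba and Vwf were called higher. For the 6 tested endothelial markers the means were 6.28 to 6.51 in WT and 6.32 to 6.36 in DM, and Cdh5 lay between 3.97 and 4.23. Of 6 tested lymphoid markers Il7r was higher and Cd79b, at a low level of 4.82 to 5.2, lower. Of 6 tested stromal markers Col1a1 and Pdgfrb were lower, with stromal means of 4.96 to 5.2 in WT and 4.84 to 4.91 in DM. No tested erythroid marker passed the test. In such bulk libraries fewer cells of a type and less RNA per cell cannot be told apart, and the part of cell composition in the changes of Mecom and Myb was not tested.

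By pattern over the 6 libraries, the 3 protein-coding genes most like Myb, of 10676 with a mean of at least 6, were Smc3 (Pearson r 0.998), a cohesin subunit, and Pole (0.997) and Pold1 (0.997), catalytic subunits of the replicative DNA polymerases. Their own differences were -0.24 for Smc3, -0.29 for Pole and -0.32 for Pold1. For Mecom they were Tmem123 (r 0.997), Me1 (0.994), the cytosolic malic enzyme, and Bcl2 (0.994), a suppressor of apoptosis. The differences of these genes were 0.16, 0.33 and 0.35. These correlations include the difference between the groups and are a description only.

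Relatives, partners and textbook targets of the 9 regulators were read from lists of 82 genes. Of the 75 that were tested 20 were called (26.7%, against 13.9% of all tested genes), 7 higher and 13 lower in DM, with a median difference of 0.03. These lists were drawn up with earlier results known, so this share is a description and supports nothing about the 9 regulators. Among the other TALE factors 2 of 9 were higher and 1 lower. Tgif1, a repressor of this class, rose from 9.66, 9.87 and 9.52 in WT to 10.18, 10.23 and 10.28 in DM, by 0.55 (SE 0.0902, limma adjusted p 0.00622). Its paralog Tgif2 fell from 5.37, 5.14 and 5.27 to 4.75, 4.87 and 4.8, a change of -0.45 (SE 0.0705, adjusted p 0.00496). Both kept their calls in all 12 alternatives. Meis3 (0.32, adjusted p 0.0487) lost its call in 9 of the 12, every library left out except WT replicate 2 among them, where the difference ran from 0.25 without DM replicate 3 to 0.38 without DM replicate 2.

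In the MYB family Mybl2, the paralog that serves the cell cycle, fell beside Myb. It read 10.44, 10.41 and 10.13 in the WT libraries against 9.71, 9.59 and 9.56 in the DM libraries. The change of -0.71 (SE 0.0914, limma adjusted p 0.00219) kept its call in all 12 alternatives. The other paralog, Mybl1, differed by 0.1 (adjusted p 0.391). In the MYC network 1 of 12 genes was called, the MAX partner Mxd3 (-0.28, adjusted p 0.0208), which lost its call without WT replicate 1 (-0.29), DM replicate 1 (-0.27) or DM replicate 3 (-0.27). Myc itself differed by -0.08 (adjusted p 0.6) and Max by 0.02 (adjusted p 0.901).

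Among 9 tested PRDM genes Prdm1, a regulator of terminal differentiation, was higher (0.26, limma adjusted p 0.0261). Prdm1 lost its call with any library left out except WT replicate 2, at 0.24 to 0.28. A further 4 genes of this family, Prdm6, Prdm12, Prdm13 and Prdm14, were below the minimum mean. Of the PAR bZIP group with its repressor relative Nfil3, Nfil3 was lower (-0.39, adjusted p 0.0393), but not in the fits without WT replicate 2 (-0.39), WT replicate 3 (-0.29), DM replicate 1 (-0.33) or DM replicate 2 (-0.36) or without the minimum mean.

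Of 7 tested ETS factors Ets1 fell and Ets2 rose. Ets1 went from 10.94, 11.21 and 11.4 in WT to 10.33, 10.18 and 10.35 in DM. The change was -0.9 (SE 0.11, limma adjusted p 0.00168) and kept its call in all 12 alternatives. Ets2 changed by 0.36 (adjusted p 0.0236) and lost its call without WT replicate 1 (0.3), DM replicate 2 (0.33) or DM replicate 3 (0.33) and after quantile normalization (0.27). Fli1, the ETS factor closest to Erg, differed by -0.09 (adjusted p 0.411). In the RNA-binding group, which also held the chromatin protein gene Hmga2, 1 of 4 tested genes was called. This was Igf2bp2, whose protein binds and stabilises messenger RNAs. Igf2bp2 rose from 8.26, 8.36 and 8.31 to 8.91, 9.01 and 8.8, by 0.6 (SE 0.0746, adjusted p 0.00196), and kept its call in all 12 alternatives as well. The Msi2 paralog Msi1 differed by -0.18 (adjusted p 0.137).

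**Figure D4:**
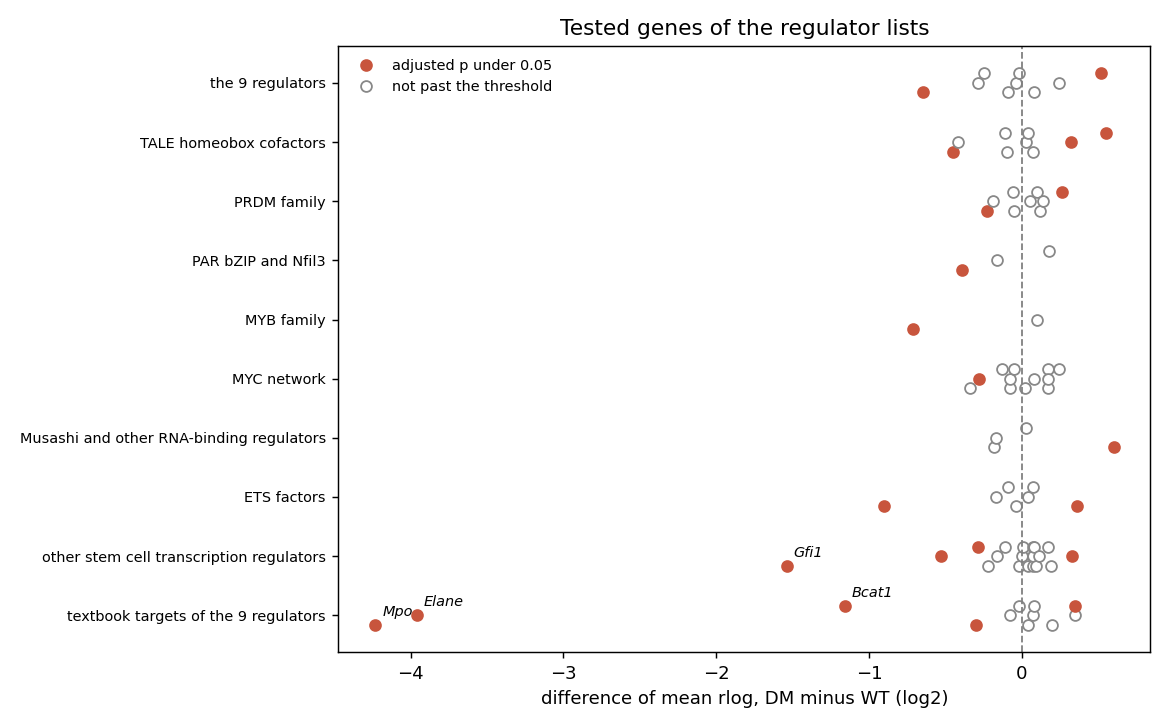
Difference of mean rlog between DM and WT (log2, horizontal axis) for the tested genes of each regulator list, with called genes filled. Mpo, Elane, Gfi1 and Bcat1 lie below -1 and the other genes above it.

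Among 20 tested transcription regulators of stem cells outside these families, 3 were lower and 1 higher. Gfi1, which restrains stem cell cycling and is needed for neutrophils, fell from 10.51, 10.52 and 10.12 in WT to 8.83, 8.6 and 9.1 in DM. The change of -1.54 (SE 0.139, limma adjusted p 0.000306) kept its call in all 12 alternatives and moved with the neutrophil markers above. Zbtb16 changed by -0.53 (adjusted p 0.0188) and lost its call without DM replicate 3 (-0.49). Bmi1, a Polycomb protein of self-renewing cells, was higher by 0.33 (adjusted p 0.0205) and Lyl1 lower by -0.29 (adjusted p 0.0169). Bmi1 lost its call without WT replicate 1 (0.35), DM replicate 1 (0.29), DM replicate 2 (0.32) or the minimum mean, and Lyl1 without WT replicate 1 (-0.3), any DM replicate (-0.26 to -0.32) or the minimum mean. The stem cell factors Runx1 (0.09, adjusted p 0.476), Gata2 (-0.02, 0.915) and Tal1 (0.19, 0.171) were not past the threshold.

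Of 12 textbook targets of the 9 regulators 4 were lower and 1 higher. The MYB targets Mpo (-4.23, limma adjusted p 0.000444) and Elane (-3.96, 0.000118), both neutrophil granule genes, were lower. Bcl2, another MYB target, was higher, reading 10.77, 10.71 and 10.64 in the WT libraries against 11.24, 11.02 and 10.9 in the DM libraries (0.35, adjusted p 0.0309). Its call was lost in 6 of 12 alternatives, among them the fits without WT replicate 1 (0.38), WT replicate 3 (0.32), DM replicate 1 (0.26) or DM replicate 2 (0.37). Kit (0.2, adjusted p 0.368) and Myc, also MYB targets, were not past the threshold. Bcat1, an enzyme of branched-chain amino acid metabolism whose messenger RNA MSI2 binds, fell from 7.29, 6.86 and 6.53 to 5.7, 5.75 and 5.75, a change of -1.16 (SE 0.153, adjusted p 0.00248) that held in all 12 alternatives. The MSI2 target Numb, which is controlled in translation, differed by 0.08 (adjusted p 0.491). The MEIS1 target Flt3 was lower by -0.3 (adjusted p 0.0494), a call lost in 9 of 11 alternatives, at -0.23 without WT replicate 1, -0.25 without WT replicate 3 and -0.29 to -0.3 without any of the DM replicates. Its level was low, at 4.68, 4.31 and 4.63 in the WT libraries against 4.25, 4.25 and 4.23 in the DM libraries.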

How the data were processed

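RNA-seq libraries of 3 WT and 3 DM samples were compared. The authors deposited rlog values on the log2 scale, as read from the name and values of the table. Per the submitters' processing notes, cutadapt 2.6, STAR 2.7.3, DESeq2 1.30.0 and the build mm10 were used; the counting tool, the use of strand and the annotation are not given in the sources used here. The 142699 lines were merged into 55487 genes, and 97.9% matched GENCODE M21 (GRCm38, the same assembly as mm10), which gave coordinates and exon lengths.

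limma 3.58.1 in R 4.3.3 (lmFit, eBayes with a mean-variance trend, two-sided, no covariate) was run on the values as deposited over 18766 genes with a mean rlog of at least 3, and p-values were adjusted by Benjamini-Hochberg over all of them, with a threshold of 0.05. All 9 regulators passed this filter. The fit was tested on simulated data. The regulators and gene lists were chosen with earlier results of these data known. All 9 regulators, up to 4 called relatives per list and, for each called regulator, the 3 most similar genes were named. Not every tested gene of the lists is reported here. No alternative was added after the values were seen. The depth is unknown, so no counting interval was computed.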

Additional observations from a re-analysis of the deposited data

How the results depend on the processing

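Of the 12 alternatives, none turned the direction of Mecom or Myb. Without 1 library the difference of Mecom ran from 0.38 to 0.64, of Myb from -0.78 to -0.54, of Pbx3 from 0.19 to 0.26, of Hlf from -0.31 to -0.19 and of Erg from -0.38 to -0.23. It ran from -0.12 to 0.04 for Mycn and from -0.15 to 0.09 for Msi2, which changed sign without DM replicate 3 (Mycn 0.04, Msi2 0) and, for Msi2, without WT replicate 1 (0.04) or DM replicate 2 (0.09). With a mean of at least 5, Pbx3 (0.24), Hlf (-0.25) and Erg (-0.29) passed the threshold, giving 2 regulators higher and 3 lower. Without the mean-variance trend Pbx3 passed (0.24), giving 2 higher. Erg passed after quantile normalization (-0.39) and after centring (-0.33), giving 2 lower in each. Leaving out a library gave 0 to 1 regulators higher and 0 to 2 lower.

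Over all tested genes, 1727 were higher and 884 lower (66.1% higher). The share was 51.3% after quantile normalization. Without the minimum mean, 1132 were higher over the 47934 genes that varied, and 4 relatives were called higher, as after quantile normalization (4). Without 1 library, 598 to 2323 genes were higher and 521 to 1152 lower, and 2 to 8 relatives higher and 8 to 13 lower.

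The labels do not say whether equal replicate numbers pair the samples, and the data did not decide it. Deviations of same-numbered libraries correlated at 0.49, 0.12 and 0.04 for replicates 1 to 3. Those of libraries with unlike numbers correlated at -0.34 to 0.12, and WT replicate 3 correlated best with DM replicate 2. With a replicate block Pbx3 (0.24) and Erg (-0.29) passed the threshold, giving 2 regulators higher and 2 lower, and 2632 genes were called higher. The cause of these shifts was not tested. Depth is unknown, and how far rlog shrinkage understates differences of Hlf and Prdm16, the lowest of the 9, was not measured.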

Other observations

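Annotated transcripts inside the loci of the regulators gave further values. In the Meis1 locus, Gm37818 shares 1029 bases (9.77%) of the merged Meis1 exons on the same strand and read 5.79, 5.75 and 5.69 in the WT libraries against 5.87, 5.62 and 5.66 in the DM libraries. The neighbours 2610001A08Rik and 2900018N21Rik, which share no exonic base with Meis1, lay between 4.94 and 5.23 and between 5.07 and 5.34. In all 3 of these transcripts DM replicate 1 was the highest DM library, as it was for Meis1. On the opposite strand Gm16140 shares 896 bases (8.51%) and lay between 3.38 and 3.5. The use of strand is not stated, so reads of overlapping exons cannot be assigned to either gene.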
